A study of Mus musculus with 4 samples.

Results

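The transcription factors that set and maintain the smooth muscle state were examined in the mouse aorta: Srf, Myocd, Mef2a, Mef2c, Mef2d, Gata6, Tead1, Klf4 and Klf5. The members are all probe sets paired with exactly 1 of these 9 gene symbols, which gave 28 of the 34945 probe sets that name a single gene, and 9 of 18193 genes. The Smad4-KO aortas came from mice whose Smad4 gene was deleted in smooth muscle cells, and the WT aortas from their wild-type littermates, all at 6 weeks of age. Smad4 is the common partner of the Smad proteins that TGF-beta and BMP receptors activate. Each genotype had 2 arrays, and RNA from 3 to 5 vessels was pooled for each array, so every value describes a pool and the spread is between pools. The Cre driver, the deleted part of Smad4, the alleles of the WT littermates and the sex of the mice were not given in the sources used here.

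Serum response factor (SRF) binds CArG boxes in the control regions of contractile genes, and myocardin, the product of Myocd, is the coactivator that turns SRF towards them in smooth and cardiac muscle. SRF also drives early growth genes when ternary complex factors such as Elk1 take the place of myocardin. MEF2 proteins belong to the same MADS-box class as SRF, GATA6 and TEAD1 bind their own motifs in smooth muscle genes, and KLF4 is known as a repressor of the contractile programme while KLF5 is linked to growth and vessel remodelling.

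The arrays differed in more than genotype. The median signal was 133 and 137 on the Smad4-KO arrays and 111 and 132 on the WT arrays. For the Dap labelling control, the 3' signal divided by the 5' signal was 3.62 and 14.1 on Smad4-KO replicates 1 and 2, and 10.02 and 2.96 on WT replicates 1 and 2. The brightest Smad4 probe set read 2676 and 3580 in Smad4-KO and 4394 and 3819 in WT and differed by -0.40 ± 0.32 on the log2 scale (adjusted p = 0.626, limma), and a probe set outside the deleted part would check nothing. The smooth muscle markers gave summed signals of 57397 and 65834 in Smad4-KO and 117139 and 144366 in WT, and 3 of 6 were called lower. Macrophage markers summed to 61060 and 80733 in Smad4-KO against 15796 and 10366 in WT (8 of 12 called higher), and sympathetic nerve cell markers to 34512 and 26876 against 1875 and 1685 (9 of 9 tested called higher). A call is an adjusted p under 0.05 in limma, which 4.92% of all genes reached as higher and 1.39% as lower. Skeletal muscle markers summed to 12882 on Smad4-KO replicate 2, against 1103 on Smad4-KO replicate 1 and 988 and 715 on the WT arrays. No marker of these lists had a signal of 0 on any array. In a piece of tissue, fewer smooth muscle cells and less RNA per smooth muscle cell cannot be told apart.

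The promoter of Srf is shown because it carries the motif that its own protein binds. Windows run from 250 bases before to 50 bases after a gene start, from RefSeq on GRCm38.p6. They are described for 5 of the 9 genes: Srf, Mef2a, Mef2c, Mef2d and Klf4. No window was found for Myocd, Klf5 and Tead1, and the promoter of Gata6 is not reported here. The Srf window (chr17:46556113-46556412, minus strand) holds 2 CArG boxes, in capitals, whose first bases lie 82 and 62 bases before the gene start. The Mef2a window (chr7:67372809-67373108, minus strand) holds 1 MEF2 motif, in capitals, whose first base lies 2 bases before the start.
Srf: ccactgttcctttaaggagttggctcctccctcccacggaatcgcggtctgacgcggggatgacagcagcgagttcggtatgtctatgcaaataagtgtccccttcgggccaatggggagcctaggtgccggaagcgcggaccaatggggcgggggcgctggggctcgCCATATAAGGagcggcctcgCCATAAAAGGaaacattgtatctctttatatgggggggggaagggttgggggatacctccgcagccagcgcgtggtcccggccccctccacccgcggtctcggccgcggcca
Mef2a: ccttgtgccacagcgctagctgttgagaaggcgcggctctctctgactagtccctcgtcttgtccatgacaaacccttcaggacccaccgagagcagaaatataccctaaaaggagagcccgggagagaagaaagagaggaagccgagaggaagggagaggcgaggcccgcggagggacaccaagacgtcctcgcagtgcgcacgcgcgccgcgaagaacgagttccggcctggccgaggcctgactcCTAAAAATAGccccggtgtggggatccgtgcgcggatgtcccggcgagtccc

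Each motif was searched on both strands. Of all 32851 promoter windows, 1.63% held a CArG box and 6 held 2 or more. The MEF2 motif was in 3.19% of all windows. The letters GGAATG, the core that TEAD proteins bind, were in 1 of 7 windows of the 5 genes, at Mef2c, and in 14.7% of all windows. The letters AGATAA, which GATA factors bind, were in 0 of 7 windows of the 5 genes and in 11.2% of all windows. Gata6 and Tead1 themselves are not among these 5.

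A CArG box stood in 3 of 23 windows of contractile genes known as SRF targets, at Myl9 (chr2:156775214-156775513, plus strand), Vcl (chr14:20929148-20929447, plus strand) and Filip1l (chr16:57548992-57549291, plus strand), which are shown for comparison with Srf. A match is a description of these letters alone and does not show that SRF was bound.
Myl9: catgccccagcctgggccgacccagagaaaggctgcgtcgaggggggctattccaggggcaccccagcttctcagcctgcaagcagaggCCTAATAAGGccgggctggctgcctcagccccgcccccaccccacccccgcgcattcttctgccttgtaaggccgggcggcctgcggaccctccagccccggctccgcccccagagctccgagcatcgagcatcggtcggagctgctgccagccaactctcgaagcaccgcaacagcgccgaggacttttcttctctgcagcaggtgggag
Vcl: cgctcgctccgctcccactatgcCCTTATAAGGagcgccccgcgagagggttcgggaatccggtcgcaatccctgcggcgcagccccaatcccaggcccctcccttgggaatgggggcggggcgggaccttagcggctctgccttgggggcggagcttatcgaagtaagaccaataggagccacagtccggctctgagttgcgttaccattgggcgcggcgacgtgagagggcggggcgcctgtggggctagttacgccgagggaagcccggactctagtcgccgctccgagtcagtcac
Filip1l: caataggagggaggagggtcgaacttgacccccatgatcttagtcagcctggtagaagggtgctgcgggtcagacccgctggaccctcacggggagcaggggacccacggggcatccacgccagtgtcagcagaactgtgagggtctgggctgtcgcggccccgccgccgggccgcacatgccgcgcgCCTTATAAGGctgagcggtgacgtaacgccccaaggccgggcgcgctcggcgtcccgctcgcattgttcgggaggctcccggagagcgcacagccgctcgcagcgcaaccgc

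The first comparison asks whether the transcripts of these factors differed between Smad4-KO and WT aortas. By its brightest probe set, Myocd averaged 5.35-fold lower in Smad4-KO, Srf 2.23-fold and Mef2c 2.04-fold, while Klf5 averaged 1.58-fold higher, but 0 of the 9 genes passed an adjusted p of 0.05 in limma. Over the same test 6.31% of 13645 genes passed, 1.39% lower and 4.92% higher in Smad4-KO, so 672 of the 861 calls were higher, and with median centring 453 of 678 were. An unadjusted p under 0.05 was reached by 3 of the 9, Srf, Mef2c and Myocd, against 19.3% of all genes. Both Smad4-KO values were under both WT values for 6 of the 9 (Srf, Myocd, Mef2a, Mef2c, Mef2d and Gata6), against 21.4% of all genes, and above both for 1 (Klf5), against 25.9% of all genes. The arrays overlapped for Klf4 and Tead1. The median log2 difference of the 9 genes was -0.78, and that of all genes tested was -0.01. Within the 4 pairings of a Smad4-KO array with a WT array the median of the 9 lay between -0.92 and -0.50.

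**Figure D1:**
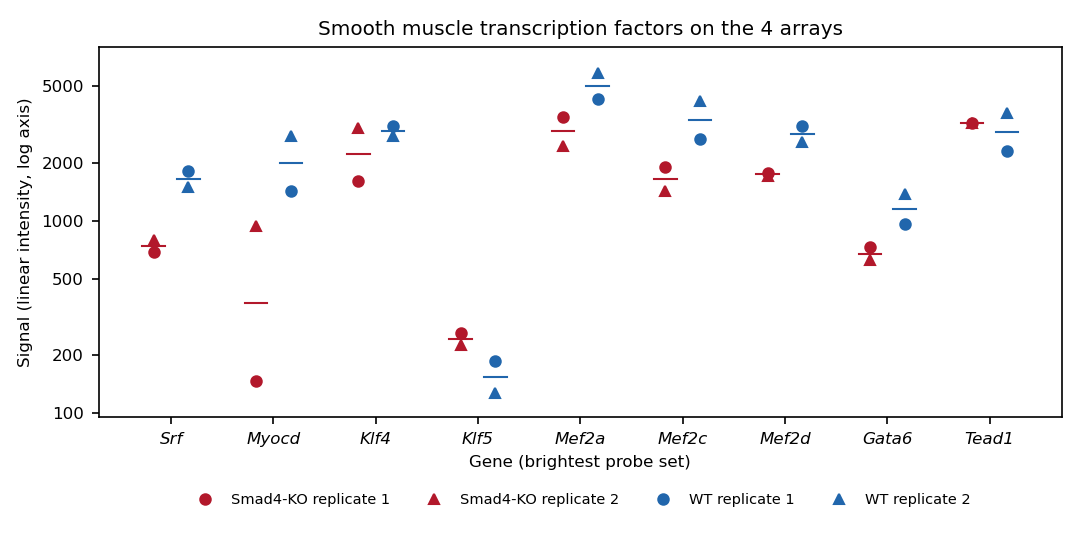
Signal (linear intensity on a log axis) of the brightest probe set of each of the 9 genes, with 1 point for each array and a bar at the geometric mean of each genotype. The Smad4-KO points lie below both WT points for 6 genes and above them for Klf5, and the Smad4-KO arrays stand apart from each other for Myocd (146 and 942).

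Srf had the smallest adjusted p of the group. Its brightest probe set, 1418255_s_at, read 690 and 794 in Smad4-KO and 1816 and 1500 in WT. The replicates lay close together in both genotypes, and every Smad4-KO array was below every WT array, by 0.92 to 1.40 on the log2 scale. The log2 difference was -1.16 ± 0.31 (95% interval -1.92 to -0.39), and it did not pass the test (adjusted p = 0.103, and 0.0652 to 0.410 over 16 alternative settings). The suffix _s_at marks probes that can match transcripts of more than 1 gene, and the share of another transcript in this signal was not tested. The second Srf probe set, 1418256_at, read 232 and 206 in Smad4-KO and 270 and 257 in WT, a log2 difference of -0.27 ± 0.33 (adjusted p = 0.843 among probe sets). Both probe sets were lower on both Smad4-KO arrays, but by unequal amounts, and their mean differed by -0.71 (adjusted p = 0.361).

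Myocd had the widest difference and the widest spread. Probe set 1425978_at read 146 and 942 in Smad4-KO and 1432 and 2755 in WT. The genotypes did not overlap, but Smad4-KO replicate 1 was far below replicate 2. The log2 gap between the Smad4-KO replicates was 2.69, wider than in 99.4% of genes of like signal, and the gap between the WT replicates was 0.94 (wider than 93.1%). The difference was -2.42 ± 0.91 (95% interval -4.69 to -0.15, adjusted p = 0.230). Against the WT arrays it was -3.29 and -4.23 for Smad4-KO replicate 1, and -0.60 and -1.55 for Smad4-KO replicate 2. Without Smad4-KO replicate 2 the difference was -3.76 and passed (adjusted p = 0.0228), and without Smad4-KO replicate 1 it was -1.08 (adjusted p = 0.356). With the replicate number as a block it also passed (adjusted p = 0.0134), and it did not in the other alternatives, whose adjusted p reached 0.606. Skeletal muscle markers were high on the same Smad4-KO replicate 2, and their part in the gap was not tested.

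The dimmer Myocd probe set, 1425808_a_at, read 9.15 and 8.66 in Smad4-KO and 86.1 and 236 in WT. Its mean was under the filter on dim probe sets, and both Smad4-KO signals were under a floor of 64, below which signals were given no order. With signals under 64 raised to 64 it was at least 2.23-fold lower in Smad4-KO, a bound on the measured ratio alone. It did not pass in a fit with no filter (adjusted p = 0.146). This probe set does not bear on the gap between the Smad4-KO replicates at the brighter one.

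The genes whose log2 values over the 4 arrays ran closest to those of Myocd were Wnt16, a secreted Wnt ligand, Abra, an actin-binding activator of SRF signalling found in striated muscle, and Mylk2, the myosin light chain kinase of skeletal muscle. Likeness was measured as the root mean square distance between profiles centred on each gene's own mean, which was 0.17, 0.20 and 0.29. Abra read 59.4 and 297 in Smad4-KO and 396 and 917 in WT. Mylk2 read 30.3 and 131 in Smad4-KO and 321 and 628 in WT. Each of the 3 was lowest on Smad4-KO replicate 1 and highest on WT replicate 2, an order that their choice by likeness fixes, and none passed the test (adjusted p = 0.107 to 0.242).

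**Figure D2:**
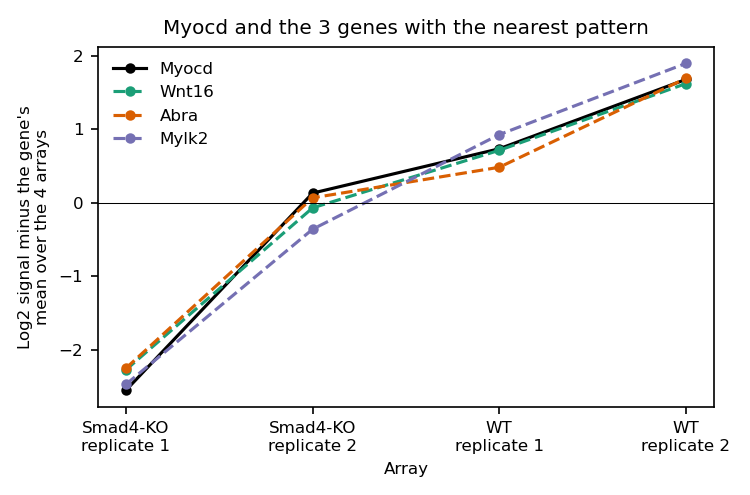
Log2 signal of Myocd, Wnt16, Abra and Mylk2 on each array, minus the gene's own mean over the 4 arrays. All 4 profiles are lowest on Smad4-KO replicate 1 and highest on WT replicate 2, since the genes were chosen for their likeness to Myocd. Wnt16, Abra and Mylk2 had signals under 64 on Smad4-KO replicate 1.

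The MEF2 genes had 14 probe sets between them, of which 13 could be tested. Mef2c, the family member best known for heart and vessel development, had 5, and all 5 differences were negative, from -1.03 to -1.46. The brightest, 1424852_at, read 1892 and 1424 in Smad4-KO and 2673 and 4197 in WT, a log2 difference of -1.03 ± 0.37 (95% interval -1.96 to -0.10, adjusted p = 0.211). The WT arrays differed more from each other than the Smad4-KO arrays did. Probe set 1451506_at read 467 and 844 in Smad4-KO and 1435 and 1906 in WT (-1.40 ± 0.44, adjusted p = 0.255 among probe sets). Probe set 1421027_a_at read 466 and 1943 in Smad4-KO and 2038 and 3383 in WT (-1.46 ± 0.77, adjusted p = 0.524), so Smad4-KO replicate 2 came close to WT replicate 1. Smad4-KO replicate 1 was the lower of its genotype in 3 of the 5 Mef2c probe sets and replicate 2 in the others, so the probe sets of this gene did not order the Smad4-KO pools alike. In 2 of the 5, 1421028_a_at and 1451507_at, the genotypes overlapped. The first of these read 97.0 and 146 in Smad4-KO and 128 and 494 in WT, and the second 680 and 275 in Smad4-KO and 677 and 1199 in WT.

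Mef2a, the widely expressed member, had 6 probe sets. Its brightest, 1427185_at, read 3461 and 2449 in Smad4-KO and 4312 and 5845 in WT, a log2 difference of -0.79 ± 0.35 (95% interval -1.67 to 0.09, adjusted p = 0.316). The 5 probe sets that could be tested all gave negative differences, but probe sets of 1 gene are not independent of each other. In 4 of them the Smad4-KO values were both under the WT values, against 20.1% of all probe sets. Probe set 1452347_at read 2083 and 1991 in Smad4-KO and 2986 and 4958 in WT (-0.92 ± 0.40, adjusted p = 0.413 among probe sets). Probe sets 1427186_a_at and 1421252_a_at differed by -0.85 and -0.83. The exception, 1442623_at, read 112 and 407 in Smad4-KO and 313 and 580 in WT, with Smad4-KO replicate 2 between the WT arrays. The remaining one, 1425426_a_at, was too dim for the test, with 38.0 and 60.0 in Smad4-KO and 13.2 and 50.5 in WT. WT replicate 1 was below WT replicate 2 in all 5 tested probe sets of Mef2a and all 5 of Mef2c.

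Mef2d was less uniform. Its brightest probe set, 1434487_at, read 1775 and 1707 in Smad4-KO and 3096 and 2556 in WT, with a log2 difference of -0.69 ± 0.30 (95% interval -1.45 to 0.06, adjusted p = 0.301). The other two overlapped between genotypes. Probe set 1437300_at read 538 and 544 in Smad4-KO and 483 and 675 in WT, a difference of -0.08, and the dim 1421388_at read 49.2 and 176 in Smad4-KO and 122 and 45.7 in WT. The mean of the 3 probe sets differed by only -0.15 (adjusted p = 0.921).

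GATA6 is a zinc finger factor linked to the differentiated, resting state of vascular smooth muscle. All 3 of its probe sets were tested, and all 3 differences were negative. The brightest, 1425464_at, read 728 and 622 in Smad4-KO and 965 and 1377 in WT, a log2 difference of -0.78 ± 0.33 (95% interval -1.61 to 0.06, adjusted p = 0.297). The dimmer 1425463_at read 212 and 217 in Smad4-KO and 446 and 566 in WT, with close replicates in both genotypes, and differed by -1.23 ± 0.34 (95% interval -2.10 to -0.35). That was the smallest adjusted p of any member probe set (adjusted p = 0.199 among 26209 probe sets). The third, 1443081_at, read 90.6 and 203 in Smad4-KO and 260 and 186 in WT, and the genotypes overlapped.

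TEAD1 recruits the coactivators YAP and TAZ to DNA. Probe set 1429556_at read 3231 and 3230 in Smad4-KO, within the WT values of 2315 and 3613. The log2 difference was 0.16 ± 0.35 (adjusted p = 0.888), and its 95% interval ran from -0.71 to 1.03, so differences of up to those sizes were not excluded. Its sign turned with median centring (-0.052) and without WT replicate 1 (-0.16). The second Tead1 probe set, 1423434_at, was too dim for the test.

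At their brightest probe sets the KLF genes had differences of opposite sign. Klf4, at probe set 1417394_at, read 1610 and 3048 in Smad4-KO and 3104 and 2742 in WT. Smad4-KO replicate 1 stood below the other 3 arrays, which lay together, and the log2 difference was -0.40 ± 0.40 (95% interval -1.41 to 0.62, adjusted p = 0.721). Without Smad4-KO replicate 1 it turned to 0.063. The second Klf4 probe set, 1417395_at, read 648 and 821 in Smad4-KO and 1029 and 779 in WT (-0.30 ± 0.36), with the same array lowest.

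Klf5 was the only member whose Smad4-KO arrays both lay above both WT arrays at its brightest probe set. Probe set 1451021_a_at read 262 and 225 in Smad4-KO and 186 and 127 in WT, a log2 difference of 0.66 ± 0.34 (95% interval -0.19 to 1.51, adjusted p = 0.395). The other Klf5 probe sets gave no such order. Probe set 1451739_at read 64.2 and 178 in Smad4-KO and 107 and 125 in WT, with overlap, and 1430255_at read 8.02 and 18.6 in Smad4-KO and 29.3 and 32.9 in WT, below the filter and under 64 on every array. With the mean of the Klf5 probe sets, this dim one included, the difference was -0.26.

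Probe set by probe set, 24 of the 28 passed the filter on dim signals, and 0 of the 24 passed an adjusted p of 0.05 in limma, where 0.782% of 26209 probe sets did. An unadjusted p under 0.05 was reached by 3 of the 24, at Srf, Gata6 and Mef2c, against 14.1% of all probe sets. Both Smad4-KO values were under both WT values in 13 of the 24, against 20.1% of all probe sets, and above both in 1, against 22.0%. Probe sets of 1 gene share a transcript and are not independent of each other. Of the 4 below the filter, those of Klf5, Mef2a and Tead1 were under 64 on every array and give no direction.

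**Figure D3:**
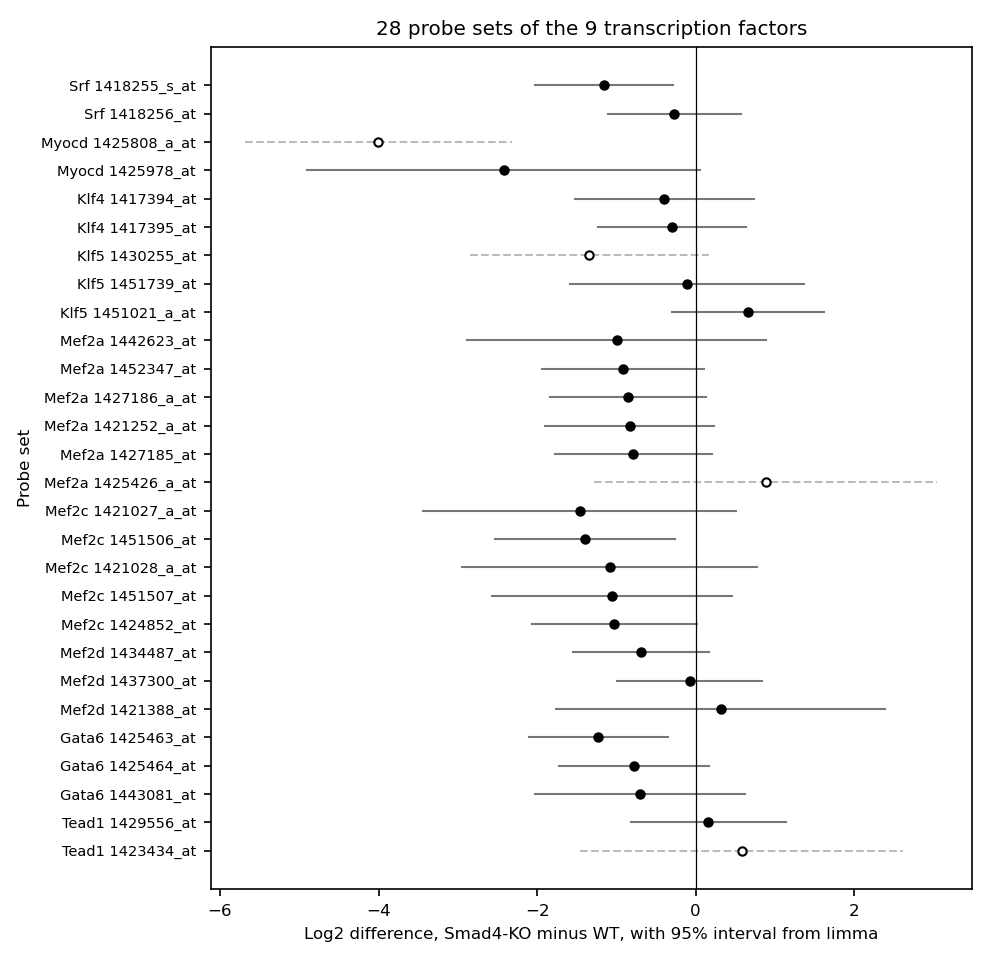
Log2 difference (Smad4-KO minus WT) with its 95% interval from limma for the 28 probe sets of the 9 genes. Filled points are the 24 tested, open points with dashed lines the 4 below the filter, taken from a fit with no filter. These 4 had signals under 64 except that of Myocd in WT, so their positions are not measured differences. Every tested probe set of Srf, Myocd, Klf4, Mef2a, Mef2c and Gata6 lies left of 0.

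Among the genes with the pattern nearest to each of the other members whose genotypes did not overlap, Srf had Spint2, Sez6 and Ebf4, at distances of 0.06. Sez6 and Ebf4 had signals under 64 on Smad4-KO replicate 1 (50.7 and 52.5). Mef2a had Setd7, C1galt1 and Tef, Mef2c had Efna5, Prkaa2 and Bace2, and Mef2d had Asb5, Rexo1 and Itpk1. Gata6 had Pias1, Srsf10 and Fads2, and Klf5 had Itih5, Klf10 and Manf. Apart from Srf, these distances were 0.02 to 0.04, over 4 arrays, and 314 to 1240 genes lay within 0.25 of each of these members.

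The second comparison sets the factors beside their partners and targets. Of 25 contractile and cytoskeletal genes listed as SRF targets, 10 fell and 0 rose, where 1.39% of all genes were called lower, and the median log2 difference was -1.52, against -0.78 for the 9 factors and -0.01 for all genes tested. Both Smad4-KO values were under both WT values for 24 of the 25, against 21.4% of all genes. All 6 smooth muscle markers are among these 25 genes, so the marker list and this list are not separate results. Smtn, an actin-binding cytoskeletal protein of smooth muscle, read 880 and 931 in Smad4-KO and 4859 and 4320 in WT, and fell 5.06-fold (adjusted p = 0.0182). Kcnmb1, the smooth muscle subunit of the large-conductance potassium channel, read 334 and 255 in Smad4-KO and 1353 and 1825 in WT, and fell 5.39-fold (adjusted p = 0.0214). Cnn1, the actin-binding protein calponin, with Lmod1 and Synpo2, fell by 2.55 to 2.96 on the log2 scale. The genotypes were fully apart in all 5 of these genes. They were picked for the lowest p of the list, a choice that favours such separation.

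The 3 contractile genes with a CArG box in their promoter window did not pass. Myl9, the regulatory light chain of smooth muscle myosin, read 14010 and 9157 in Smad4-KO and 34262 and 41593 in WT (-1.74 ± 0.35, adjusted p = 0.0526). Vcl, which links actin to adhesions, read 8830 and 8815 in Smad4-KO and 19084 and 22622 in WT (-1.24 ± 0.30, adjusted p = 0.0812). Filip1l read 2408 and 2133 in Smad4-KO and 4644 and 9430 in WT (-1.55 ± 0.43, adjusted p = 0.115). In these 3 genes, as in Srf itself, both Smad4-KO values were under both WT values. That held for 24 of the 25 contractile genes, with or without a CArG box in the window, and for 21.4% of all genes. Myl9, Vcl and Filip1l were named for the motif and not for their values. Myh11, the smooth muscle myosin heavy chain, differed by -1.82 (adjusted p = 0.0633). Myh11 passed in 6 of 16 alternative settings and Myl9 in 5, with lowest adjusted p of 0.0355 and 0.0287, among them the replicate block and a threshold of 0.10. Acta2, the smooth muscle actin, differed by -0.57 at its brightest probe set (adjusted p = 0.447), which read 30692 and 39989 in Smad4-KO and 47232 and 57304 in WT, near the highest signals of the arrays. Averaged over its 3 probe sets, Acta2 differed by -1.98 and passed (adjusted p = 0.0468).

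Among all genes 1.39% were called lower and 4.92% higher. Of 9 coactivators and cofactors of SRF, 1 fell and 0 rose, with a median of -1.28. The fall was that of Csrp2, a LIM protein that links SRF to GATA factors, which read 5318 and 5386 in Smad4-KO and 23129 and 19714 in WT (3.99-fold, adjusted p = 0.0246). Fhl2, a LIM protein that antagonises myocardin-related factors at SRF, differed by 1.48 in the other direction (adjusted p = 0.0593). The myocardin-related factors themselves, Mrtfa and Mrtfb, differed by 0.29 and -0.14 (adjusted p = 0.798 and 0.883). Of 11 ternary complex factors and repressors 0 rose and 0 fell in limma. At an unadjusted p under 0.05, 1 was higher and 1 lower, against 19.3% of all genes in either direction. Elk3 differed by 1.36 (adjusted p = 0.0932) and Zeb1 by -0.89 (adjusted p = 0.182). Of 10 early genes of SRF, 2 were higher and 2 lower at an unadjusted p under 0.05, against the same 19.3% of all genes. After adjustment 1 fell, Fosb, which read 84.9 and 60.4 in Smad4-KO and 230 and 274 in WT (3.51-fold, adjusted p = 0.0406). The higher ones were Egr2 (1.55, adjusted p = 0.159) and Junb (1.29, adjusted p = 0.148), whose genotypes did not overlap.

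The relatives of the other factors gave no call in limma at the settings used throughout. Of 9 MEF2 relatives, class II deacetylases and kinases, 8 differences were negative, against 50.3% of all genes, and 5 reached an unadjusted p under 0.05, against 19.3%. Their median was -0.82, with Hdac9, which represses MEF2, at -1.53 (adjusted p = 0.105) and Prkd1, a kinase that exports such deacetylases from the nucleus, at -1.25 (adjusted p = 0.0763). Hdac9 differed by -0.20 once its second, dim probe set was averaged in, and Prkd1 passed in 3 of 16 alternatives (lowest adjusted p = 0.0451). The 11 other KLF genes had a median of 0.04 and 1 reached an unadjusted p under 0.05, Klf12 (-1.22, adjusted p = 0.184), while Klf9 differed by -1.01 (adjusted p = 0.359). Of 7 GATA, FOG and NKX genes tested, 1 reached an unadjusted p under 0.05, Gata3 (1.75, adjusted p = 0.212, and 0.0339 with the replicate block), and Nkx2-3 differed by -0.87 (adjusted p = 0.275). Of 14 TEAD relatives and Hippo genes, Tead3 differed by -1.09 (adjusted p = 0.171) and Tead2 by 1.03 (adjusted p = 0.234), the 2 members that reached an unadjusted p under 0.05, and 1 gene of the list was called lower without Smad4-KO replicate 2. Of 12 YAP and TEAD target genes 0 reached it, and Tgfb2 differed by -1.37 (adjusted p = 0.427) and Ccn1 by -0.86 (adjusted p = 0.495).

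**Figure D4:**
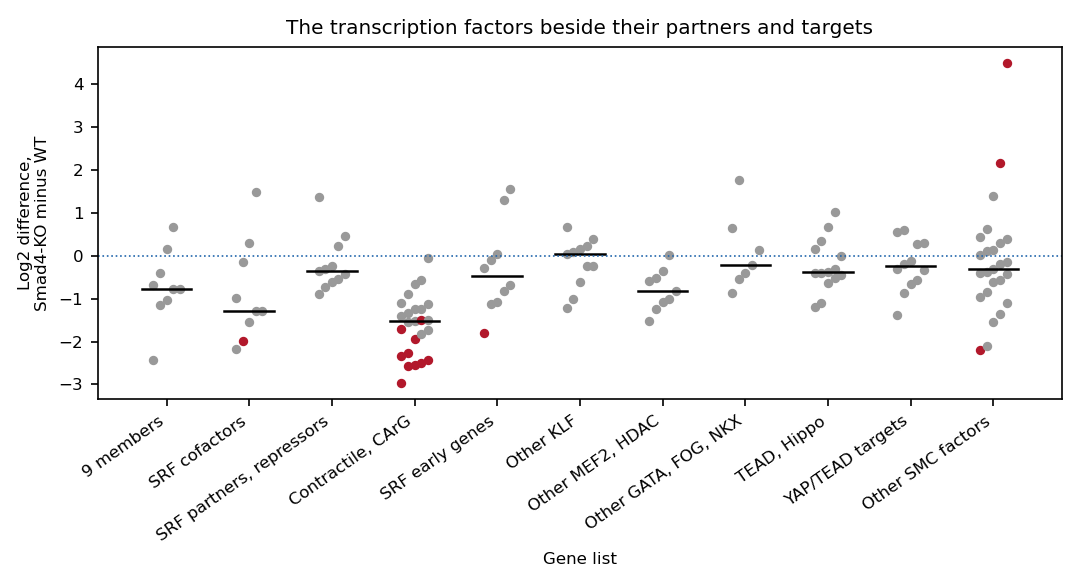
Log2 difference (Smad4-KO minus WT) of each gene tested in the 9 members and in 10 lists of their partners, relatives and targets. Red points passed an adjusted p of 0.05 in limma, black bars are list medians, and the dotted line is the median of all genes tested (-0.01). Red points stand in the contractile list, in which 10 of 25 fell, and in the lists of SRF cofactors, SRF early genes and other smooth muscle factors.

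Of 25 other transcription factors of vascular smooth muscle, 2 rose and 1 fell, where 4.92% of all genes were called higher and 1.39% lower. Their median was -0.30, and it was -0.049 without Smad4-KO replicate 1 and -0.52 without Smad4-KO replicate 2. Heyl, a Notch target repressor, read 262 and 199 in Smad4-KO and 1137 and 965 in WT (4.59-fold lower, adjusted p = 0.0233). Tbx20, a T-box factor of heart and vessel, read 610 and 614 in Smad4-KO and 129 and 145 in WT (4.46-fold higher, adjusted p = 0.0205). Hand2, which also acts in sympathetic neurons, read 1477 and 2173 in Smad4-KO and 71.0 and 89.5 in WT (22.5-fold higher, adjusted p = 0.0125). Sympathetic nerve cell markers were higher on the same arrays (median 4.92), and their part in the difference of Hand2 was not tested.

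The calls in these lists depended on single arrays and on the filter. Without WT replicate 1, Cnn1, Smtn, Lmod1, Synpo2, Kcnmb1, Csrp2, Fosb, Heyl and Tbx20 no longer passed, 0 contractile genes were called, and Hand2 still passed (adjusted p = 0.0345). Without WT replicate 2, with a block for the arrays that matched on the labelling control, or with dim genes kept, 0 of all genes passed. Without Smad4-KO replicate 1 the contractile list held 6 calls, and the call of Csrp2 ended, and without Smad4-KO replicate 2 it held 8 and that of Fosb ended. The contractile median stayed between -1.81 and -1.40 in the 4 pairings of arrays. With all probe sets of a gene averaged, Kcnmb1, Fosb, Hand2 and Tbx20 did not pass.

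Some of the factors are also made by other cells of the vessel wall, such as Mef2c and Klf4 in endothelial cells and Mef2c in skeletal and cardiac muscle. Endothelial markers summed to 16064 and 8859 in Smad4-KO and 15400 and 13143 in WT, with 0 of 11 called in limma and 1 at an unadjusted p under 0.05. Adventitial fibroblast markers summed to 116491 and 168083 in Smad4-KO and 138530 and 152002 in WT, with 0 of 8 called and 0 at an unadjusted p under 0.05. Cardiac muscle markers summed to 1007 and 888 in Smad4-KO and 1176 and 1562 in WT, with 1 of 5 tested called lower, Myh6, whose Smad4-KO signals were under 64. With signals under 64 raised to 64, 0 of the 5 were called. Skeletal muscle markers had 0 of 6 tested called and 1 at an unadjusted p under 0.05, and fat cell markers summed to 61040 and 30688 in Smad4-KO and 66340 and 29545 in WT, with 0 of 5 called and 1 at an unadjusted p under 0.05. Schwann cell markers summed to 3244 and 2561 in Smad4-KO and 1114 and 1013 in WT, with 1 of 3 tested called higher. Among all genes 4.92% were called higher and 1.39% lower, and 19.3% reached an unadjusted p under 0.05. The part of these cells, and of macrophages and nerve cells, in the values of the factors was not tested.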

How the data were processed

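Expression was measured on Affymetrix mouse arrays from pooled aortas, 2 arrays per genotype, with 400 ng of RNA each. Each deposited value is the linear intensity of a probe set. The submitters' processing notes name Affymetrix Expression Console and RMA, but the values are not log-scaled and their mean, trimmed by 2% at each end, is 500 on every array, a form that MAS5 gives and RMA does not. Detection calls and a genome build were not given in the sources used here.

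Probe sets were paired with genes through the platform's annotation: of 45101, 34945 have 1 symbol, 932 several, 9160 none and 64 are controls, and 34741 matched RefSeq by gene identifier. After log2 transformation the brightest probe set (by mean) stood for each gene, and genes (or, in a second fit, probe sets) whose mean lay below the 25th percentile (5.64 and 5.25) were left out, leaving 13645 genes and 26209 probe sets. The 9 factors stayed in, and 4 of their 28 probe sets were left out. Genotypes were compared with limma 3.58.1 (R 4.3.3; lmFit, eBayes, genotype as the only term, two-sided), adjusted by Benjamini-Hochberg over all genes or all probe sets, with a threshold of 0.05. A value after ± is the standard error of a log2 difference from that fit, Smad4-KO minus WT, and the number of arrays limits the precision. Differences are given with the sign of that subtraction.

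The procedure was tested on simulated data in which arrays differed by genotype and independent noise alone, so differences in labelling were not covered. Named genes are the 9 factors, Smad4, Acta2, Myh11, up to 5 called genes of each list with the lowest p (or the 2 lowest where none was called), and the 3 genes nearest in pattern to each factor whose genotypes did not overlap. Fhl2, Mrtfa, Mrtfb, Egr2, Junb and Myh6 were named after their values were seen, and Myl9, Vcl and Filip1l for their promoters. The members and lists were chosen with earlier results of these data known. Alternatives were a replicate block, a block for arrays matched on the labelling control, quantile, cyclic loess and median scaling, other filters, a floor of 64, the mean of probe sets, other test options, an adjusted p of 0.10 and leaving out each array. List counts and medians under these settings were added after seeing the data. Tables and figures used Python 3.11.15, pandas 2.3.3 and matplotlib 3.10.9.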

Additional observations from a re-analysis of the deposited data

How the results depend on the processing

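The count of the 9 factors past the threshold was 0 and became 1, Myocd, with the replicate block, and 0 to 1 when each array was left out in turn (Myocd without Smad4-KO replicate 2). It stayed 0 in the other alternatives, and the count of member probe sets stayed 0 in all 15. The count of all genes past the threshold was 861. It was 1321 with the replicate block, 1403 at an adjusted p of 0.10, 0 with the block for the labelling pairs (2658 at an unadjusted p under 0.05), 0 with no filter (2788), and 0 to 808 when each array was left out. The replicate numbers are not stated to mark shared animals or days, and the deviations of same-numbered arrays from their genotype means correlated at -0.01 across genes, so the block is no paired test. The sign turned for Klf4 without Smad4-KO replicate 1 (0.063), for Klf5 with the mean of its probe sets (-0.26), for Tead1 with median centring (-0.052) and without WT replicate 1 (-0.16), and for Nkx2-3 with the mean of its probe sets (0.11). Among probe sets it also turned for Klf5 1451739_at without WT replicate 2 (0.0068) or Smad4-KO replicate 1 (0.63), for Mef2d 1437300_at without WT replicate 2 (0.16), and for Mef2d 1421388_at without WT replicate 2 (-0.39) or Smad4-KO replicate 2 (-0.60); the cause was not tested. When each array was left out, the ranges were -0.86 to 0.063 for Klf4, -0.16 to 0.48 for Tead1, -0.84 to 0.63 for Klf5 1451739_at, -0.32 to 0.16 for Mef2d 1437300_at, and -0.60 to 1.23 for Mef2d 1421388_at. Srf, Myocd, Mef2a, Mef2c, Mef2d and Gata6 kept their sign in all 16 alternatives, but both Smad4-KO values were under both WT values at their representative probe sets, so leaving out an array could not turn it, and with the mean of probe sets Mef2d shrank to -0.15 and Srf to -0.71. Median centring moved the median of all genes to -0.22, and against that shift the difference of Tead1 was above it.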
